A study of Homo sapiens with 6 samples.

Results

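K562, the cell line profiled here, grew out of a chronic myelogenous leukaemia, the disease of the BCR-ABL fusion kinase. The genes described are the fusion partners BCR and ABL1 and 8 genes for proteins that act directly beside the kinase: GRB2, GAB2, SHC1, SOS1, CRKL, CBL, INPP5D and LYN. They were taken by symbol, 10 genes out of 23710 in the count tables, by a rule that uses no measured value. The choice was made with earlier results of these data known. Treated K562 cells received 20 µM 3FM-dC together with 2 mM THU, control cells received the solvent DMSO, and both groups were harvested after 24 h, with 3 libraries each. The labels give the compounds only by these abbreviations, all cells came from the same line at passages 13 to 16, and no group received 3FM-dC or THU alone. The question stated for the series was how 3FM-dC changes expression across the genome; its title speaks of activating TET2, which oxidises methylated cytosine.

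In BCR-ABL the amino-terminal part of BCR is joined to the tyrosine kinase ABL1, which keeps the kinase active. A phosphorylated tyrosine in the BCR part binds the adaptor GRB2. GRB2 brings the exchange factor SOS1, which loads RAS, and the docking protein GAB2, which recruits PI3-kinase and the phosphatase SHP2. SHC1 is another route to GRB2, CRKL is a prominent substrate of the kinase, CBL is a ubiquitin ligase that also serves as a scaffold, INPP5D encodes the lipid phosphatase SHIP1, and LYN is a SRC family kinase.

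The site by which GRB2 is recruited can be read in the coding sequence, and SHC1 carries a like site. The stretches below are from GENCODE release 29 transcripts on GRCh38, 5′ to 3′ on the coding strand, and the capitals mark the codon of the tyrosine that binds GRB2. It is codon 177 of 1271 in BCR (chr22:23181477-23181503, plus strand, exon 1) and codon 318 of 474 in the SHC1 transcript used (chr1:154966037-154966063, minus strand, exon 11).
BCR: gagaagcccttcTACgtgaacgtcgag
SHC1: gatgatccctccTATgtcaacgtccag

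K562 is known for a fusion that joins exon 14 of BCR to exon 2 of ABL1. The reference sequences on either side of that junction are shown because they limit what the counts can say. They are the last 30 bases of the BCR exon (chr22:23290384-23290413, plus strand) and the first 30 of the ABL1 exon (chr9:130854064-130854093, plus strand) on GRCh38.
BCR exon 14: actcagccactggatttaagcagagttcaa
ABL1 exon 2: aagcccttcagcggccagtagcatctgact
A read from the fusion transcript adds to the count of BCR or of ABL1 like a read from the normal gene, and the gene counts hold no junction reads of their own. Fusion and normal transcripts therefore cannot be told apart in any value of BCR or ABL1 below.

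Libraries held 18408826 to 22750278 counts in genes, so 3 counts correspond to 0.136 to 0.168 CPM. Levels are given in CPM, the count of a gene relative to its library's total scaled by a TMM factor. That factor was 0.969 to 0.970 in DMSO libraries and 1.03 to 1.04 in treated ones, so it differed by group. Nothing in the labels says that replicates were separate cultures, so each p-value is set by how far these libraries scatter, and that scatter may be only technical. With edgeR's quasi-likelihood test, 66.4% of the 12339 genes tested passed an adjusted p of 0.05, 33.8% higher and 32.7% lower in treated cells. Scaling by total counts gave 5048 genes higher and 3189 lower in place of 4167 and 4031. That scaling raised log2 fold changes by a median of 0.0905. In 70% of the genes the CPM of the groups did not overlap. All 12 markers of the line that were listed, such as GATA1 and the embryonic globin HBE1, were detected, and their summed level was 7433 to 7616 CPM in DMSO libraries and 3811 to 3981 CPM in treated ones. Summed myeloid markers went from between 127 and 138 CPM to between 216 and 218 CPM, with ELANE, S100A8 and LILRB1 at 0 counts in every library and 10 of 20 markers under 1 CPM throughout. Of 10 myeloid markers tested, 9 rose and 1 fell. Some of the 9, such as CTSG with 0 counts in DMSO, passed the filter only through the treated libraries. FCGR2A rose from 50.3 ± 1.36 to 103 ± 4.04 CPM, while CD68 fell from 39.9 ± 4.27 to 26.1 ± 3.51 CPM. Lymphoid markers summed to 89.5 to 96.7 and 107 to 113 CPM, with 16 of 19 under 1 CPM, and CD8A, CD2, MS4A1 and KLRD1 at 0 counts. Most of that sum was PTPRC, at 83.8 ± 3.61 CPM in DMSO and 97.9 ± 2.51 CPM in treated libraries. Stromal and epithelial markers summed to 854 to 869 and 985 to 1114 CPM, with 10 of 17 under 1 CPM and LUM, PDGFRA, CDH5 and KRT5 at 0 counts. Of 7 tested, 3 rose and 4 fell, at a median log2 fold change of -0.53. KRT8 and KRT18 rose, from 337 ± 5.10 to 512 ± 44.0 and from 299 ± 3.77 to 395 ± 25.8 CPM. KRT19 fell from 112 ± 2.99 to 59.8 ± 2.80 CPM and EPCAM from 102 ± 0.708 to 62.0 ± 1.52 CPM. In such bulk samples, fewer cells of a type and less RNA per cell cannot be told apart, and the part of these shifts in the results below was not tested.

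All 10 genes passed the count filter, and 7 of them passed the test. GAB2, CBL, SOS1, SHC1 and ABL1 rose, and CRKL and LYN fell, while BCR, GRB2 and INPP5D did not pass. A share of 7 in 10 is close to the 66.4% of all genes tested. The groups did not overlap for 8 of the 10 genes, beside 70% of all genes. Most of the differences were small: the log2 fold change lay between -0.3 and 0.3 for 7 of them, and only GAB2 changed at least 2-fold, as 10.2% of all genes did upward and 2.46% downward. The median log2 fold change of the 10 genes was 0.14, beside 0.01 for all genes tested. Their summed level was 1940.4 ± 31.9 CPM in DMSO and 1957 ± 37.6 CPM in treated libraries (SD, n = 3 per group).

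**Figure D1:**
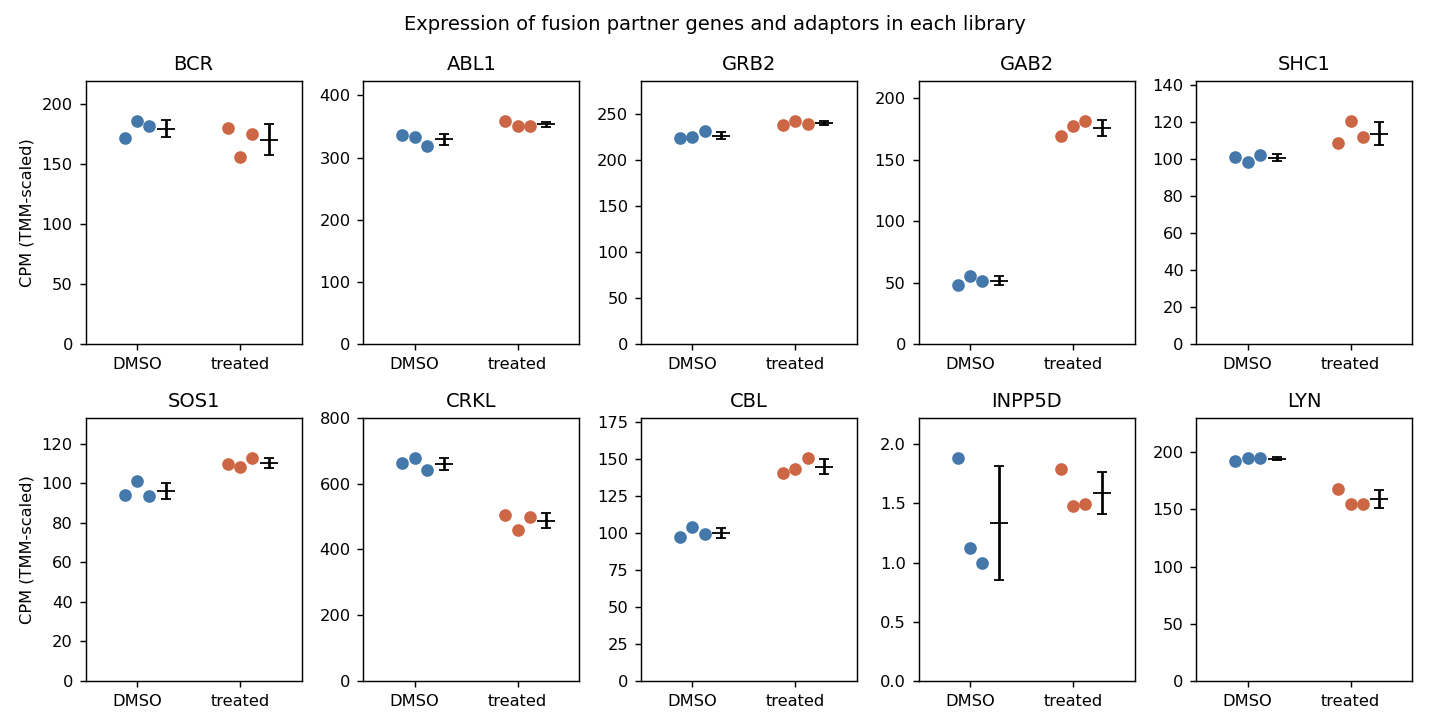
CPM after TMM scaling (y axes from 0) of each of the 10 genes in 3 DMSO libraries (blue) and 3 libraries treated with 3FM-dC plus THU (orange); black marks give the mean and SD. GAB2 goes from about 51.6 to 176 CPM, CRKL and LYN are lower in every treated library, and the groups overlap for BCR and INPP5D.

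The fusion partners moved little. BCR had 172, 186 and 182 CPM in DMSO (replicates 1, 2 and 3, as throughout), and 180.1, 156 and 176 CPM in treated libraries. The groups overlapped, with the lowest value in treated replicate 2. The log2 fold change of BCR was -0.08 (SE 0.05, edgeR adjusted p = 0.156). It was 0.01 with total counts, and without treated replicate 1 it was -0.12 and passed (edgeR adjusted p = 0.0294).

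ABL1 had 337, 333 and 319 CPM in DMSO and 359, 350.4 and 351 CPM in treated libraries. Every treated library lay above every DMSO library, though by little. ABL1 rose 1.07-fold, from 329.6 ± 9.03 to 353 ± 4.43 CPM (log2 fold change 0.10, SE 0.04, edgeR adjusted p = 0.0140). Over the settings run, its log2 fold change lay between 0.08 and 0.19. The call was lost without DMSO replicate 3 (edgeR adjusted p = 0.0818) and against a minimum fold change of 1.2 (adjusted p = 1), over a range of 1.35e-05 to 1.

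Set against length, BCR had 0.484 ± 0.0273 times the level of ABL1 in DMSO libraries and 0.428 ± 0.0288 times in treated libraries (CPM per kb of exon, SD, n = 3). The ratio was 0.453 to 0.504 in DMSO and 0.394 to 0.445 in treated libraries, without overlap (two-sided exact permutation p = 0.1, the smallest that 3 against 3 allows). A fusion transcript covers only part of each gene, so this ratio does not count molecules. Among the tested genes with the profiles most like BCR across the 6 libraries were XRCC3 and OSBPL11, with root-mean-square differences of centred log2 CPM of 0.0131 and 0.0170. For ABL1 they were TDP2, GNA13 and SMEK2, at 0.0070, 0.0125 and 0.0128.

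GRB2, which links the phosphorylated kinase to SOS1 and GAB2 by its SH2 and SH3 domains, had 223, 224 and 231 CPM in DMSO and 237, 242 and 239 CPM in treated libraries. These groups did not overlap, yet the difference just missed the threshold (log2 fold change 0.08, SE 0.04, edgeR adjusted p = 0.0546). It passed with total counts (0.17, adjusted p = 0.000128), with a filter at 5 CPM (0.12, adjusted p = 0.00417) and without DMSO replicate 3 (0.10, adjusted p = 0.0461), over a range of 0.000128 to 1.

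SOS1, the exchange factor that GRB2 carries to RAS, had 94.2, 101 and 93.5 CPM in DMSO and 110.0, 108 and 113 CPM in treated libraries. The lowest treated library was above the highest DMSO library. SOS1 rose 1.15-fold (log2 fold change 0.20, SE 0.05, edgeR adjusted p = 0.000618). SHC1, which offers GRB2 the other binding site shown above, had 101, 98.7 and 102 CPM in DMSO and 109, 121 and 112 CPM in treated libraries. All 3 treated values were higher, and treated replicate 2 was the highest. SHC1 rose 1.13-fold (log2 fold change 0.18, SE 0.05, edgeR adjusted p = 0.00213). Neither SOS1 nor SHC1 passed against a minimum fold change of 1.2 (edgeR adjusted p = 0.980 and 1).

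GAB2, the docking protein, changed most of the 10 genes. It had 48.2, 55.1 and 51.7 CPM in DMSO and 169, 177 and 181 CPM in treated libraries. The lowest treated library was far above the highest DMSO library. GAB2 rose 3.41-fold, from 51.6 ± 3.44 to 176 ± 6.20 CPM (SD, n = 3), with a log2 fold change of 1.77 (SE 0.05, edgeR adjusted p = 6.12e-22). Under the 13 alternatives run, its log2 fold change stayed between 1.72 and 1.86.

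The other GAB docking proteins moved the opposite way. GAB1 had 51.7, 50.03 and 46.1 CPM in DMSO and 16.1, 19.0 and 18.7 CPM in treated libraries, and fell 2.74-fold (log2 fold change -1.45, SE 0.08, edgeR adjusted p = 1.14e-15). GAB3, named after its values were seen, fell 2.52-fold from 52.1 ± 1.94 to 20.8 ± 2.19 CPM (edgeR adjusted p = 4.05e-15). These directions held under each scaling tried. Per length, GAB2 made up 30.5%, 34.6% and 33.0% of the GAB family's transcripts in DMSO libraries, against 79.9%, 81.1% and 82.3% after treatment. The sum of the family was 25.4 ± 0.204 CPM per kb in DMSO and 34.9 ± 0.725 CPM per kb in treated libraries. Both the share and the sum separated the groups without overlap (two-sided exact permutation p = 0.1 for each, the smallest that 3 against 3 allows). For the share this follows from the rise of GAB2 and the falls of GAB1 and GAB3, so its p adds no evidence.

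**Figure D2:**
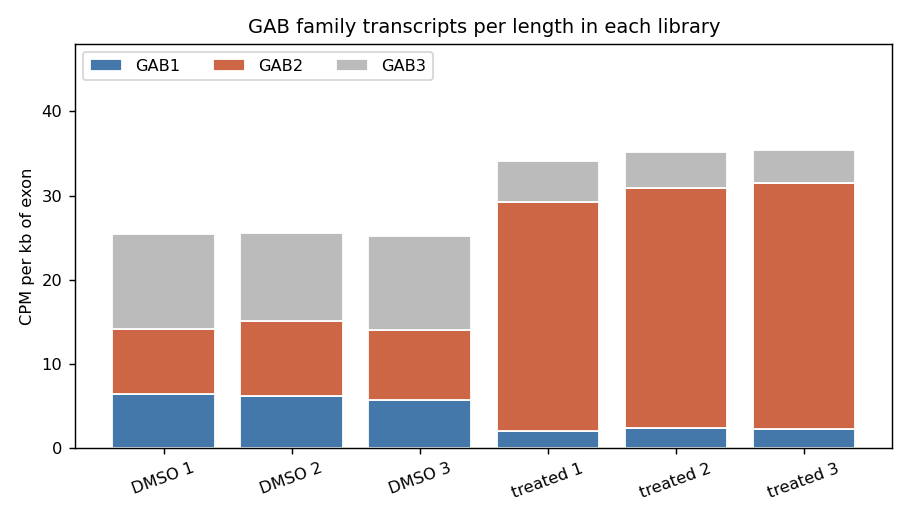
Stacked levels of GAB1 (blue), GAB2 (orange) and GAB3 (grey) in CPM per kb of exon (y axis) in each of the 6 libraries (x axis). GAB3 is the largest part in the DMSO libraries, and GAB2 makes up 79.9% to 82.3% of the sum in treated libraries.

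GAB2 has a pair of start sites in the RefSeq promoter table (GRCh38.p14), and the gene counts pool transcripts from both. The 250 bases before each are shown beside those of CRKL, the gene of the 10 that fell most, with each CG, the dinucleotide at which human DNA is mostly methylated, in capitals. GAB2 start 1 is chr11:78417821-78418070 and start 2 is chr11:78341920-78342169, both on the minus strand, and CRKL is chr22:20917157-20917406 on the plus strand.
GAB2 start 1: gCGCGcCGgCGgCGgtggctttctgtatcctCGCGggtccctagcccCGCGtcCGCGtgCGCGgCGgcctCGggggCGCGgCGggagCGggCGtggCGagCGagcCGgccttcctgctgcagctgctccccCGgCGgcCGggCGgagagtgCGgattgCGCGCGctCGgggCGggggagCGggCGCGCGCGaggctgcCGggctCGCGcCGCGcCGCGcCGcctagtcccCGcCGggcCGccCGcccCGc
GAB2 start 2: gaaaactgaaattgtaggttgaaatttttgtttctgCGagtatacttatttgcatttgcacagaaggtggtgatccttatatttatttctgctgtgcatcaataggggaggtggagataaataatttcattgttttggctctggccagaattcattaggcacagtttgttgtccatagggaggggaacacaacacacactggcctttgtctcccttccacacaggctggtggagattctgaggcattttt
CRKL: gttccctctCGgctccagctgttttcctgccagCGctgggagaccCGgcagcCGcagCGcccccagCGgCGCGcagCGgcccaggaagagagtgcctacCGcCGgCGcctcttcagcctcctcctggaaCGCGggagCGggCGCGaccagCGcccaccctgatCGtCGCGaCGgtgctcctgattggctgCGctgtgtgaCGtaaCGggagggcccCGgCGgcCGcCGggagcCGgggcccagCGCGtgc

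GAB2 start 1 holds 51 CG, more than 99.9% of the 35116 promoter windows in the table, and start 2 holds 1, more than 6.1% of them. CRKL holds 32, more than 90.5%. Methylation was not measured in these libraries. Of the 10 genes 8 matched the table, all but CBL and LYN. The remaining windows held 33 CG for ABL1, 27 for GRB2, 20 for BCR, 9 for INPP5D, 16 and 5 for the starts of SHC1 and 8 and 15 for those of SOS1, beside a median of 11 over all windows.

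The windows of the 8 matched genes were searched on both strands for GATAA, bound by GATA factors, TGANTCA, bound by AP-1, TGATGNAA, an ATF4 element, and CACGTG, an E-box. GATAA occurs in GAB2 start 2 and SOS1 start 1 and in 20.4% of all windows. TGANTCA occurs in SHC1 start 2 and in 6.6% of all windows. TGATGNAA and CACGTG, found in 3.1% and 6.3% of all windows, are in none of these genes' windows. A match of letters is a description and not a binding site.

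CRKL, an adaptor whose phosphorylation is used to monitor BCR-ABL activity, was the most abundant of the 10 genes. It had 662, 679 and 642 CPM in DMSO and 504, 460.4 and 500.2 CPM in treated libraries. Each treated library was lower than each DMSO library. CRKL fell 1.35-fold, from 661 ± 18.4 to 488 ± 24.0 CPM (log2 fold change -0.44, SE 0.04, edgeR adjusted p = 1.82e-11). Its paralogue CRK had 70.7 ± 1.66 and 67.2 ± 2.94 CPM (log2 fold change -0.07, edgeR adjusted p = 0.240, and 0.02 with total counts). Per length, CRKL was 6.81 ± 0.0903 times CRK in DMSO and 5.30 ± 0.475 times in treated libraries.

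CBL, which ubiquitinates active tyrosine kinases and docks PI3-kinase and CRKL, had 97.0, 104 and 99.0 CPM in DMSO and 140.2, 143 and 150.5 CPM in treated libraries. The groups were well apart. CBL rose 1.45-fold, from 99.9 ± 3.45 to 145 ± 5.29 CPM (log2 fold change 0.53, SE 0.05, edgeR adjusted p = 3.52e-11). CBLB, its close relative, rose 1.41-fold from a lower level, 6.89 ± 0.426 to 9.67 ± 1.46 CPM (edgeR adjusted p = 0.00379). Per length, CBL stood at 9.55 ± 0.628 times CBLB in DMSO and 9.97 ± 1.41 times in treated libraries, ranges that overlapped.

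LYN, a SRC family kinase reported to phosphorylate GAB2 and CBL in such leukaemias, had 193, 195 and 195 CPM in DMSO and 168, 154 and 154 CPM in treated libraries. All treated values were lower, and treated replicate 1 was the nearest to DMSO. LYN fell 1.22-fold (log2 fold change -0.29, SE 0.04, edgeR adjusted p = 7.41e-07), a call lost against a minimum fold change of 1.2 (adjusted p = 0.224, over a range of 7.83e-12 to 0.224). YES1, another SRC family kinase, rose 1.82-fold from 218 ± 8.42 to 396 ± 13.8 CPM (edgeR adjusted p = 1.74e-17). Per length, YES1 was 1.36 ± 0.0545 times LYN in DMSO and 3.04 ± 0.206 times in treated libraries.

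INPP5D, the phosphatase SHIP1 of blood cells, had the lowest level of the 10 genes. It had 34, 20 and 22 counts in DMSO and 35, 31 and 32 counts in treated libraries, or 1.89, 1.12 and 0.998 CPM against 1.79, 1.48 and 1.499 CPM. The groups overlapped, and DMSO replicate 1 held the highest level. At this depth no difference was detectable (log2 fold change 0.26, SE 0.34, edgeR adjusted p = 0.509). The value of INPP5D rested on single libraries: it was 0.58 without DMSO replicate 1 (edgeR adjusted p = 0.204), 0.08 without DMSO replicate 3 (adjusted p = 0.872). Leaving out DMSO replicate 2 gave 0.15, and leaving out treated replicate 1 gave 0.16. INPP5D passed in none of the 12 alternatives that kept the gene. INPPL1, which encodes the related SHIP2, was far more abundant, at 140.5 ± 4.20 CPM in DMSO and 162 ± 6.83 CPM in treated libraries, and rose (log2 fold change 0.20, edgeR adjusted p = 0.000168), a call lost against a minimum fold change of 1.2 (adjusted p = 0.971). Per length, INPPL1 had 119 ± 38.7 times the level of INPP5D in DMSO and 107 ± 10.1 times in treated libraries.

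**Figure D3:**
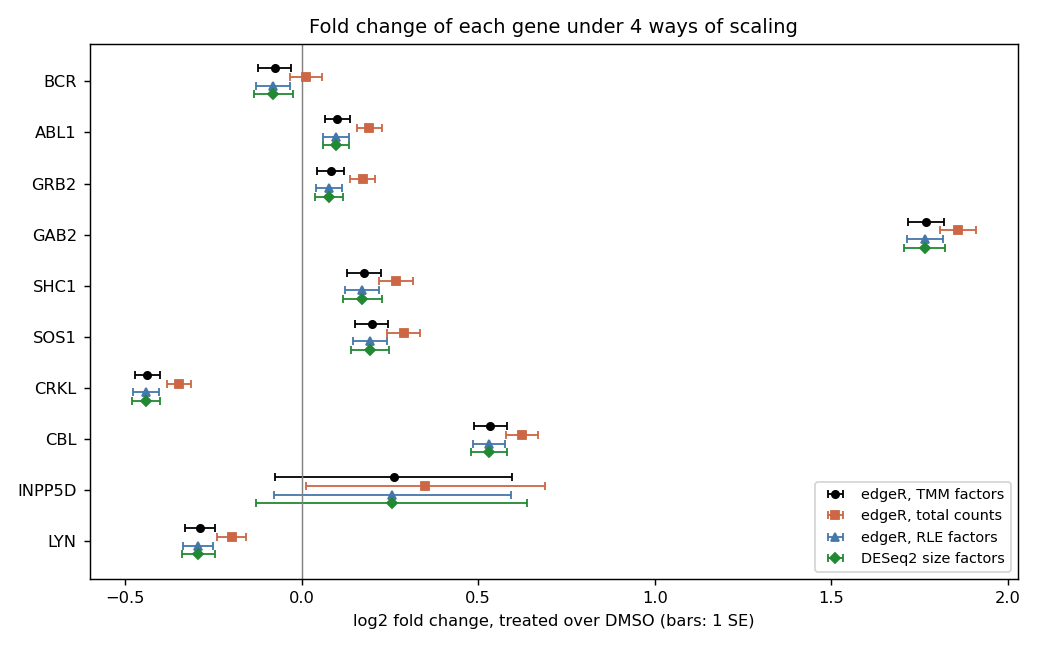
log2 fold change of treated over DMSO (x axis, bars give 1 SE) of the 10 genes (y axis) with TMM factors, total counts, RLE factors and DESeq2's size factors. Total counts move each gene up by about 0.09, which turns BCR from -0.08 to 0.01, while GAB2, CBL, CRKL and LYN keep their side of 0.

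Levels of different genes were compared as CPM per kb of exon, with exonic lengths from the GRCh38 annotation. In DMSO libraries the order was CRKL (124), GRB2 (55.9), ABL1 (52.5), LYN (32.9), SHC1 (27.9), BCR (25.4), SOS1 (11.3), CBL (8.89), GAB2 (8.31) and INPP5D (0.253), all mean CPM per kb. Only CBL and GAB2, neighbours in this order, overlapped between libraries. In treated libraries GAB2 took the fifth place, at 28.3 ± 0.998 CPM per kb, and overlapped with LYN at 27.0 ± 1.35. SOS1 and CBL overlapped at 12.9 ± 0.287 and 12.9 ± 0.471. CRKL stayed highest in both groups, at 91.7 ± 4.51 CPM per kb in treated libraries.

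**Figure D4:**
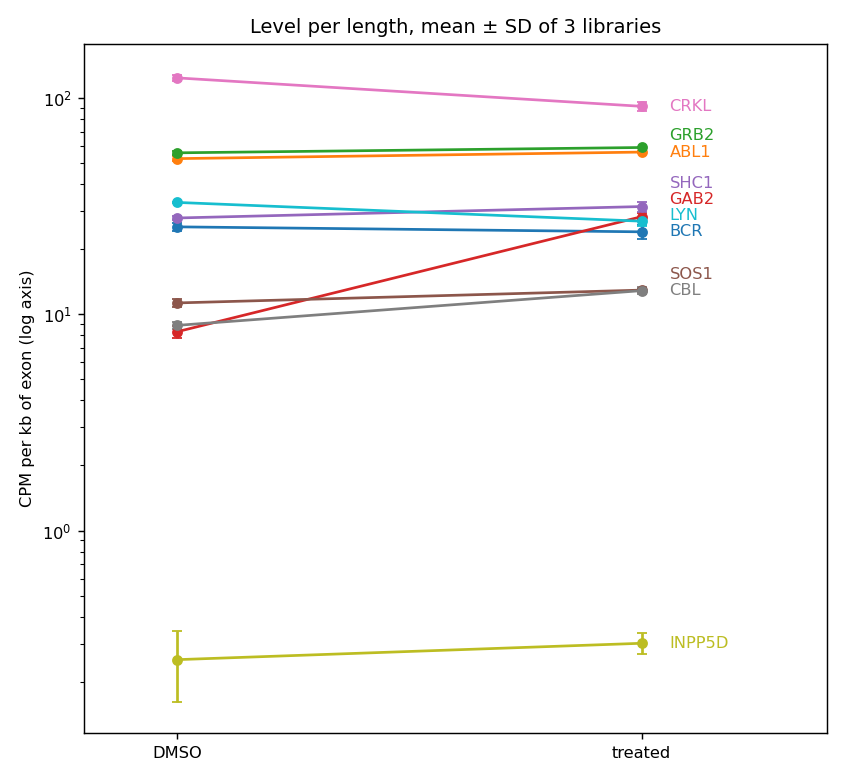
Mean CPM per kb of exon (log y axis, bars give the SD of 3 libraries) of the 10 genes in DMSO and treated libraries. GAB2 climbs from 8.31 to 28.3 CPM per kb, into the range of LYN, while CRKL is the highest in both groups.

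Further genes of the pathway were taken from lists, each read beside the 66.4% of all genes that changed. In the list of other adaptors and docking proteins 23 of 27 were tested. Of these 13 rose and 3 fell, with 7 not passing, at a median log2 fold change of 0.49, and total counts gave 16 higher and 3 lower. SH3BP2, an adaptor that binds SRC family kinases and ABL, rose 7.47-fold from 4.12 ± 0.5003 to 31.0 ± 1.47 CPM (edgeR adjusted p = 6.97e-19). GRB10, an adaptor reported to bind BCR-ABL, rose 1.69-fold from 157 ± 3.73 to 265 ± 7.24 CPM. SOS2, the paralogue of SOS1, rose 1.80-fold from 28.1 ± 4.63 to 50.6 ± 2.25 CPM, and per length SOS1 was 2.24 ± 0.309 times SOS2 in DMSO and 1.41 ± 0.0707 times in treated libraries. SHC2 passed the filter only through the treated libraries, with 3 counts in all of DMSO and 85 in the treated group, a ratio of 26.5 (95% exact binomial interval 8.77 to 131, counting error only). SOS2 and SHC2 were named after their values were seen, as were CRK, CBLB and INPPL1 above.

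Regulators that restrain this signalling rose in 8 and fell in 4 of 16 tested genes out of 18 listed, with a median log2 fold change of 0.14, and with total counts 10 rose and 3 fell. CSK, which inhibits SRC family kinases, fell from 174 ± 4.58 to 146 ± 9.10 CPM (log2 fold change -0.26, edgeR adjusted p = 1.22e-05). PAG1, the membrane anchor of CSK, had 2 counts in all of DMSO and 218 in the treated libraries, a ratio of 102 (95% exact binomial interval 27.9 to 848, counting error only). It reached 2.71, 3.43 and 4.36 CPM there and passed the filter only through that group. SPRED1, which holds RAS in check through neurofibromin, fell from 53.9 ± 2.23 to 42.7 ± 1.96 CPM (edgeR adjusted p = 2.50e-05). Against a minimum fold change of 1.2 the calls of CSK and SPRED1 were lost (edgeR adjusted p = 0.482 and 0.0926).

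Non-receptor tyrosine kinases rose in 3 and fell in 4 of 12 tested genes out of 16 listed. Their median log2 fold change was -0.03, and 0.06 with total counts. Beside YES1, FYN rose 1.68-fold from 24.6 ± 1.84 to 41.4 ± 1.601 CPM (edgeR adjusted p = 6.17e-10). PTK2B, a focal adhesion kinase relative, fell from 91.2 ± 2.12 to 62.6 ± 4.10 CPM (log2 fold change -0.54, edgeR adjusted p = 7.76e-10).

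In the cascade from RAS to ERK all 15 genes were tested, and 4 rose, 8 fell and 3 did not pass, with 5 higher and 5 lower under total counts. No gene of this cascade changed 2-fold, and the median log2 fold change was -0.12. MAP2K2, the kinase MEK2, rose from 134 ± 5.90 to 184 ± 6.77 CPM (log2 fold change 0.45, edgeR adjusted p = 3.95e-10). RPS6KA1, a kinase downstream of ERK, fell from 82.2 ± 4.12 to 59.5 ± 5.22 CPM, and HRAS, a RAS protein, from 46.8 ± 3.60 to 34.5 ± 2.55 CPM.

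The PI3-kinase, AKT and mTOR list had all 24 genes tested, with 6 higher, 7 lower and 11 that did not pass. With total counts 9 were higher and 5 lower, and the median log2 fold change of -0.05 became 0.04. FOXO3, a transcription factor held in the cytoplasm by AKT, rose 1.99-fold from 25.4 ± 1.499 to 50.5 ± 3.57 CPM (edgeR adjusted p = 9.98e-13). PIK3R4, a regulatory subunit of the class III kinase, fell from 67.0 ± 3.87 to 43.9 ± 4.52 CPM, and PIK3CG, a catalytic subunit of blood cells, rose from 42.1 ± 1.99 to 59.5 ± 1.82 CPM.

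Of 10 transcripts used as readouts of ERK activity 6 were tested, and 3 rose, 1 fell and 2 did not pass. PHLDA1, a growth factor induced gene, rose from 1.14 ± 0.269 to 11.3 ± 1.17 CPM (edgeR adjusted p = 2.05e-14). SPRY4, a feedback inhibitor of RAS signalling, rose 2.03-fold to 69.7 ± 5.16 CPM, and ETV5, an ETS transcription factor, 2.14-fold to 80.3 ± 11.7 CPM. The member that fell was CCND1, which encodes cyclin D1. DUSP6 and DUSP4, listed genes for phosphatases of ERK, did not reach the count filter. DUSP6 had 1, 0 and 0 counts in DMSO and 1, 1 and 0 in treated libraries. DUSP4 had 0, 0 and 1 counts in DMSO and 7, 29 and 9 in treated libraries, and was not tested.

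In the list of STAT5 and its target transcripts all 10 tested genes of 12 listed changed, 7 up and 3 down. STAT5A, which the kinase activates, fell from 812 ± 8.05 to 535 ± 54.7 CPM (log2 fold change -0.60, edgeR adjusted p = 1.67e-12). Its paralogue STAT5B, named after its values were seen, rose slightly, from 259 ± 5.06 to 279 ± 12.9 CPM (log2 fold change 0.11, edgeR adjusted p = 0.0160). SOCS2, a STAT5-induced inhibitor of cytokine signalling, rose 2.83-fold (edgeR adjusted p = 7.05e-22), and ID1, an inhibitor of differentiation factors, fell from 75.8 ± 1.01 to 38.6 ± 2.62 CPM. Cyclin gene CCND2 was the third to fall.

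**Figure D5:**
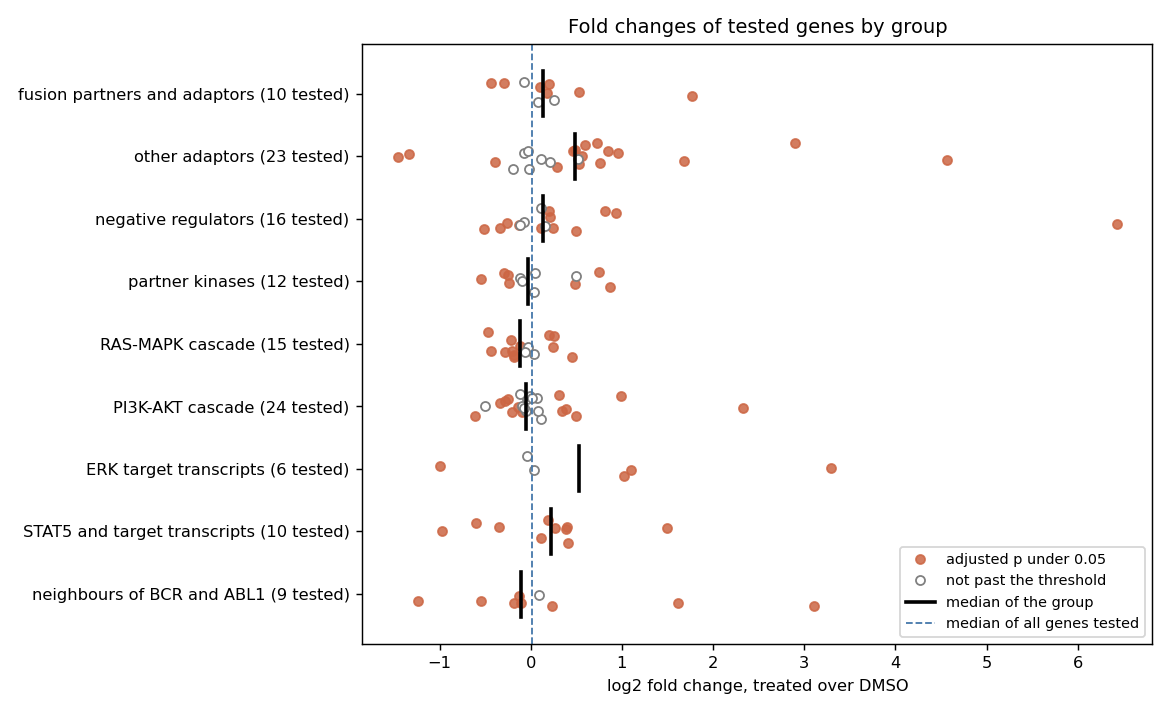
log2 fold change of treated over DMSO (x axis) of each tested gene in the 10 genes described and in 8 further groups (y axis, points spread vertically by chance). Filled points passed an edgeR adjusted p of 0.05, black lines are group medians and the dashed line is the median of all genes tested, 0.01; the medians of the partner kinases and of the PI3K-AKT group turn positive with total counts.

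K562 is known to carry extra copies of the fused region. Genes that lie beside BCR on chromosome 22 and beside ABL1 on chromosome 9 did not share a direction. They were listed by gene name only, and which of them lie within the extra copies was not examined. Of 17 listed, 9 were tested, with 3 higher and 5 lower, and 4 higher and 2 lower with total counts. On chromosome 9, ASS1, an enzyme of arginine synthesis, rose 8.64-fold from 1.53 ± 0.0926 to 13.3 ± 2.46 CPM, and AIF1L, an actin-binding protein, rose 3.07-fold. EXOSC2, a subunit of the RNA exosome, fell from 82.6 ± 1.57 to 56.7 ± 0.707 CPM (edgeR adjusted p = 3.54e-10).

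The authors' deposited table gives a fold ratio of its group B over its group A, which its headers do not name. For GAB2 the authors' deposited table gives 3.37 with an adjusted p of 1.31e-215, and for CBL 1.43, CRKL 0.731 and LYN 0.811. Of the 10 genes 6 have, in the authors' deposited table, an adjusted p under 0.05. The share is 43.2% of its 17781 gene rows that hold an adjusted p. These are more genes than the 12339 tested here, so that share and the 66.4% given above have different bases. ABL1 is the gene called here and not there, with a ratio of 1.062 and an adjusted p of 0.0652 in the authors' deposited table.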

How the data were processed

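RNA of 6 K562 libraries was sequenced after a directional mRNA preparation from 1000 ng of total RNA, per the labels' protocols. The values used are counts of reads, whole and not normalized, that the authors deposited as 1 list of gene symbols per library. They also deposited a table with a fold ratio, p-value and adjusted p-value of group B against group A. Per the submitters' processing notes, STAR, Cufflinks, DESeq2 and the build hg19 were used, without roles. How reads were counted, with which strand setting and annotation, is not given in the sources used here. The 5 rows of unassigned reads (no feature: 10.9% to 13.1% of all counts, ambiguous: 2.27% to 2.38%) were left out.

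Genes were tested with edgeR 4.0.16 (R 4.3.3): filterByExpr with a minimum count of 10 (12339 of 23710 symbols), TMM factors, quasi-likelihood test with treatment as the only term, two-sided, with Benjamini-Hochberg adjustment over all genes tested. DESeq2 1.42.0, other scalings and filters, a minimum fold change of 1.2, a replicate block and leaving out each library were alternatives. The test was checked on simulated data in which few genes changed, as many up as down. That check does not cover data in which most genes change, as here. Replicate pairs differed beyond counting noise (chi-square per degree of freedom 2.38 to 6.22) and were kept apart. Profile likeness used log2(CPM + 0.5). Exonic lengths and coding sequences came from GENCODE 29 and promoters from RefSeq, both on GRCh38, matched by symbol, and no coordinate of the files was used. By GENCODE exons, SHC1 overlaps an antisense gene that has no row in the count tables used (326 of 3610 exonic bases), so reads there may belong to either.

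The 10 genes, the lists and the rule for named genes were chosen with earlier results of these data known. That rule took all 10 genes, the 3 called and non-overlapping genes of each list with the smallest p, and the 3 genes with profiles nearest to BCR and to ABL1. One gene that the rule names is not reported here. Genes outside it are said to be so or were named as the few exceptions in a list after their values were seen. For CPM ratios, 10 quantities per library were compared by exact permutation.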

Additional observations from a re-analysis of the deposited data

How the results depend on the processing

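Under all 13 alternatives GAB2, CBL and CRKL kept their direction and their call. With a minimum fold change of 1.2, 4765 genes passed (2641 higher, 2124 lower), and of the 10 genes 3 passed (2 higher, 1 lower). ABL1 then did not pass at 0.10. In the lists that setting left 11 other adaptors higher and 2 lower, 4 negative regulators higher and 1 lower, and 3 partner kinases higher and 1 lower. It left 1 RAS-MAPK gene higher and 2 lower, 4 PI3K-AKT genes higher and 1 lower, and 3 ERK targets higher and 1 lower. Among STAT5 genes 4 were higher and among the neighbours of BCR and ABL1 2 were lower, with the other direction of these lists not given here. With total counts BCR turned from -0.08 to 0.013, CRK to 0.0184, 5 RAS-MAPK genes and 2 neighbours were lower, and the median log2 fold changes became 0.58 for other adaptors, 0.23 for negative regulators, 0.056 for partner kinases, -0.031 for RAS-MAPK, 0.0417 for PI3K-AKT, 0.62 for ERK targets, 0.32 for STAT5 and -0.0183 for the neighbours. This scaling raised all genes by a median of 0.0905. Without a low-count filter the medians were 0.0357 for partner kinases, -0.14 for RAS-MAPK, -0.0643 for PI3K-AKT, 0.70 for ERK targets and 0.73 for the neighbours. More genes then entered the lists of partner kinases (15 in place of 12), ERK targets (10 in place of 6) and neighbours (16 in place of 9), but none entered RAS-MAPK or PI3K-AKT. With a filter at 5 CPM they were 0.33 for other adaptors, -0.0795 for RAS-MAPK, -0.0069 for PI3K-AKT, 0.57 for ERK targets, 0.27 for STAT5 and 0.0333 for the neighbours, of which 3 were lower. The causes of these shifts were not tested.

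Leaving out each library gave -0.12 (without treated replicate 1, passing) to -0.0167 for BCR and 0.0781 (without DMSO replicate 3, not passing) to 0.11 for ABL1. The medians ranged from -0.12 to 0.0003 for partner kinases (0.0003 without treated replicate 2), -0.14 to -0.10 for RAS-MAPK, -0.0683 to -0.039 for PI3K-AKT, 0.49 to 0.54 for ERK targets and -0.14 to 0.0028 for the neighbours (0.0028 without DMSO replicate 2). Same-numbered libraries did not deviate together (correlations of -0.0019, -0.0006 and -0.0674). No pairing by number was seen, which does not show that there was none. With the replicate block 8050 genes changed in place of 8198 and 7 of the 10 genes in place of 7, and no call of a named gene changed. Depth limits INPP5D, with 20 to 35 counts per library, and SHC2 and PAG1, with 3 and 2 DMSO counts.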
